A study of Mus musculus with 7 samples.

Results

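The IGKV12 and IGKV10 light chains described here are antibody kappa chains built from 8 germline V genes of the mouse. These are IGKV12-41, IGKV12-44, IGKV12-46, IGKV12-89 and IGKV12-98 of one family, and IGKV10-94, IGKV10-95 and IGKV10-96 of the other. Members were cells with exactly 1 productive light chain contig whose first V call named one of these genes. They made up 2517 of 17822 such cells in 6 libraries, 1320 in IGKV12 and 1197 in IGKV10. The remaining cells were 14516 other kappa cells and 789 lambda cells. The other kappa cells include those of IGKV12-38, a further IGKV12 gene that is not a member. It had 63 productive contigs in the 6 libraries, 17 of them in cells with more than 1 light chain. The V gene of the deposited tables equalled the V gene of the original 10x call in all 2517 member cells, and no member call named several genes.

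The cells came from female mice aged 10 to 11 months that were either 5xFAD, a transgenic model of brain amyloid deposition, or wild type (WT). Both genotypes received ketamine and xylazine, intracardiac heparin and perfusion with PBS, and their nodes were digested with Liberase and DNase I. Deep cervical (dCLN), superficial cervical (sCLN) and inguinal (iLN) lymph nodes were taken; cervical nodes receive lymph from the head, including the meninges, and inguinal nodes from the flank and hind limb. Each node and genotype had 1 library, a pool of hashtagged samples, and whether nodes of the same animals were used is not given in the sources used here. A further library mixed all nodes and both genotypes; it entered no test, and its values are given beside the others only where named.

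A kappa chain is made when a V gene is joined to 1 of the functional segments IGKJ1, IGKJ2, IGKJ4 or IGKJ5, of which IGKJ1 lies nearest to the V genes; IGKJ3 is not functional. A cell can replace a first kappa rearrangement by joining a V gene further upstream to a J segment further downstream, a process called receptor editing. IGKV10 chains are known from the anti-arsonate antibodies of A/J mice.

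All 8 genes lie on chromosome 6 of GRCm38, the assembly also called mm10, which the submitters' processing notes name. From the distal to the proximal end they are IGKV12-98 (68570763 to 68571235, plus strand), IGKV10-96 (68631963 to 68632442, minus), IGKV10-95 (68680379 to 68680848, plus), IGKV10-94 (68704508 to 68704978, minus), IGKV12-89 (68834846 to 68835307, minus), IGKV12-46 (69764523 to 69765022, minus), IGKV12-44 (69814631 to 69815154, minus) and IGKV12-41 (69858420 to 69858884, minus), as annotated in GENCODE M21. The annotation classes each as a V gene and none as a pseudogene. IGKV12-98 and IGKV10-95 are the 2 members on the strand of IGKJ1 (70722562 to 70722599, plus). The distance to IGKJ1 was 2151 kb for IGKV12-98, 2090 kb for IGKV10-96 and 864 kb for IGKV12-41. The IGKV10 genes and the distal IGKV12 genes therefore share one stretch of the locus, while IGKV12-41, IGKV12-44 and IGKV12-46 form a second.

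Within a family the V segments were 78.4% to 97.2% identical over 13 pairs, against 67.6% to 72.5% over the 15 pairs between families. IGKV10-94 and IGKV10-95 differed least (97.2% identity) and have the same 3′ end, so their calls rest on the few other bases at which they differ. The germline 3′ ends below are shown because they fix most of each light chain junction; each runs from the conserved cysteine codon to the last base of the V segment in GENCODE.
IGKV12-41: tgtcaacatttttggagtactcctcc
IGKV12-44: tgtcaacatcattatggtactcctcc
IGKV12-46: tgtcaacatttttggggtactcctcc
IGKV12-89: tgtcaaaatgtgttaagtactcctcc
IGKV12-98: tgtcaacaactttacagtactcctct
IGKV10-94: tgtcagcagtatagtaagcttcctcc
IGKV10-95: tgtcagcagtatagtaagcttcctcc
IGKV10-96: tgccaacagggtaatacgcttcctcc

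The J segments they join begin as follows in GENCODE.
IGKJ1: gtggacgttcggt
IGKJ2: tgtacacgttcgg
IGKJ4: attcacgttcggc
IGKJ5: gctcacgttcggt

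The 2 most frequent junctions of each member over the 6 libraries are given next, with the bases assigned to J in capitals.
IGKV12-41 with IGKJ2: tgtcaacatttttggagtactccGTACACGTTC
IGKV12-41 with IGKJ1: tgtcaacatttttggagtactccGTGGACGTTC
IGKV12-44 with IGKJ5: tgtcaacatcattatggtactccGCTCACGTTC
IGKV12-44 with IGKJ2: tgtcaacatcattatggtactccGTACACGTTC
IGKV12-46 with IGKJ2: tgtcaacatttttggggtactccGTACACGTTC
IGKV12-46 with IGKJ1: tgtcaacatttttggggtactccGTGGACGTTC
IGKV12-89 with IGKJ2: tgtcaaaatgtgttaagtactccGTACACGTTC
IGKV12-89 with IGKJ1: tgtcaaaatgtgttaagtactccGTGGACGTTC
IGKV12-98 with IGKJ2: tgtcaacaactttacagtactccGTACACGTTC
IGKV12-98 with IGKJ1: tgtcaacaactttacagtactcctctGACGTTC
IGKV10-94 with IGKJ1: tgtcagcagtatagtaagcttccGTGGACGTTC
IGKV10-94 with IGKJ2: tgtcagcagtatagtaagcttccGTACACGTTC
IGKV10-96 with IGKJ1: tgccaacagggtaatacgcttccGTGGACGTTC
IGKV10-96 with IGKJ2: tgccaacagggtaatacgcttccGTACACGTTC
All but 1 of these 14 junctions take 23 bases from V and 10 from J. The exception is the IGKJ1 junction of IGKV12-98, which keeps 26 V bases and 7 J bases.

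The libraries held 2178 to 3867 cells with 1 light chain and 99906 to 312484 unique molecular identifiers (UMIs, counts of distinct captured transcripts). Member light chains had a median of 28 to 35 UMIs per cell by library, and other kappa chains 24 to 30. Cells with more than 1 light chain were 8.45% to 11.7% of cells with a light chain. Pairs of these libraries shared 4 to 35 cell barcodes, of which 3 over all 15 pairs also shared a light chain junction. Intervals below are exact Clopper-Pearson 95% intervals and cover counting error only.

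IGKV10-96 was the most used of 93 light chain V genes seen, and the members spanned nearly the whole range of use. By the mean over 6 libraries it took 5.42% ± 0.446 of cells (SD, n = 6 libraries), followed by IGKV12-46 at 2.65% ± 0.294, which ranked 9, and IGKV12-44 at 2.36% ± 0.254, which ranked 11. IGKV12-41 ranked 19 with 1.71% ± 0.343 and IGKV10-94 ranked 30 with 1.34% ± 0.235. IGKV12-98 and IGKV12-89 were rare, with 0.485% ± 0.0912 and 0.259% ± 0.0941. The ranges over libraries overlap between neighbours in this order from IGKV12-46 (2.35% to 3.13%) through IGKV12-44 (2.04% to 2.66%) and IGKV12-41 (1.21% to 2.12%) to IGKV10-94 (1.06% to 1.68%), and do not overlap between the other neighbours. IGKV10-95 was the first-listed V gene of 0 of 17822 cells with a single light chain, which allows a share of up to 0.0168%. IGKV10-96 thus made up 79.8% of IGKV10 cells, while IGKV12-46, IGKV12-44 and IGKV12-41 made up 35.5%, 31.6% and 23.0% of IGKV12 cells.

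**Figure D1:**
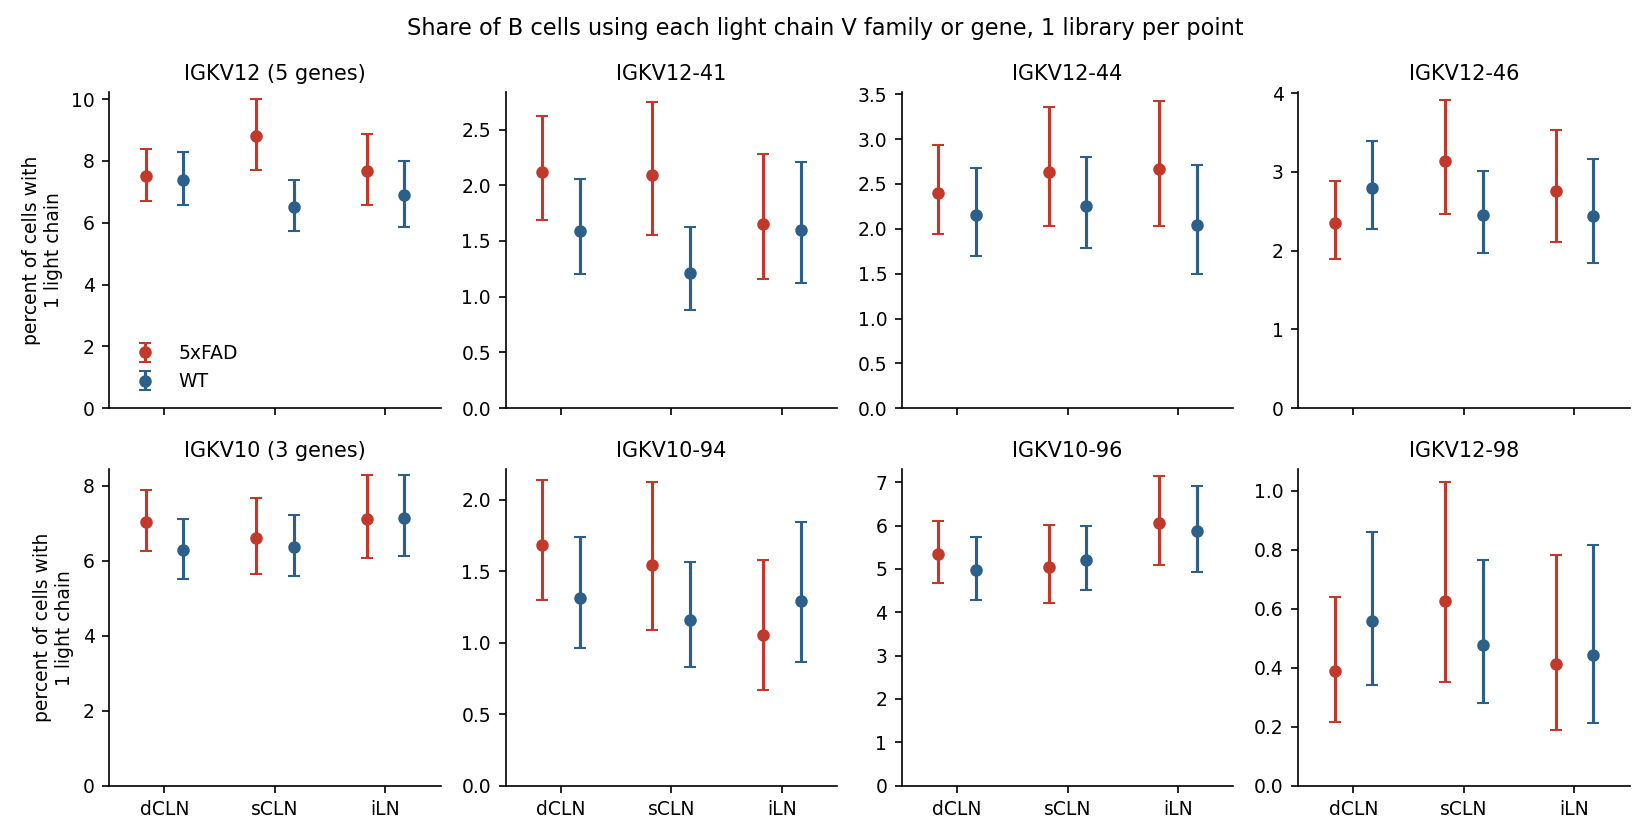
Percent of cells with 1 light chain that use each family or gene (y axis), by node and genotype (x axis); each point is 1 library and bars are exact 95% intervals. The IGKV12 share in the superficial cervical node is the one place where 5xFAD and WT intervals do not overlap (8.81% and 6.51%).

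The IGKV12 share was higher in 5xFAD than in WT libraries at each node, by an amount that was clear of counting error only in the superficial cervical node. It was 8.81% (interval 7.71% to 10.0%) in 5xFAD sCLN and 6.51% (5.72% to 7.37%) in WT sCLN, a ratio of 1.35. In dCLN it was 7.53% in 5xFAD and 7.40% in WT, and in iLN 7.67% in 5xFAD and 6.89% in WT. The difference averaged 1.07 ± 1.12 percentage points (SD, n = 3 nodes; exact two-sided sign-flip test, p = 0.25, the smallest 3 nodes allow). Without sCLN it averaged 0.454 points. Over single light chain V genes at 0.5% or more of cells, intervals of the 2 genotypes were apart for 0 of 61 genes in sCLN (0%), for 1 of 59 in dCLN (1.69%) and for 2 of 60 in iLN (3.33%), and no member was among them. Single genes hold fewer cells than the family and have wider intervals relative to their share. They are therefore not a like-for-like background for the family difference.

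The sCLN difference was spread over the family. IGKV12-41 was 2.09% of 5xFAD and 1.21% of WT sCLN cells, IGKV12-46 was 3.13% and 2.45% in the same order, IGKV12-44 was 2.63% and 2.25%, and IGKV12-98 was 0.626% and 0.479%. For IGKV12-89 there were 8 cells in 5xFAD sCLN and 4 in WT sCLN. IGKV12-41 and IGKV12-44 were higher in 5xFAD in 3 of 3 nodes, as were 10.7% of the 56 V genes compared at all nodes, and 19.6% were lower in 3 of 3. Among V genes at 0.5% or more, IGKV12-41 in sCLN was the one member gene with a ratio of 1.5 or more in either direction (1.72). The share of V genes higher and lower by that ratio was 5.08% and 6.78% in dCLN, 6.56% and 4.92% in sCLN, and 13.3% and 11.7% in iLN. IGKV12-46 was higher in 5xFAD in sCLN and iLN but lower in dCLN, with 2.35% in 5xFAD and 2.79% in WT. When every productive light contig was counted, cells with more than 1 light chain included, the sCLN difference of the family was 1.69 points and the intervals overlapped.

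The IGKV10 share did not separate the genotypes. It was 7.03% in 5xFAD and 6.28% in WT dCLN, 6.60% in 5xFAD and 6.37% in WT sCLN, and 7.12% in 5xFAD and 7.15% in WT iLN. The mean difference was 0.315 ± 0.401 points (SD, n = 3 nodes; exact two-sided sign-flip test, p = 0.5). The interval of the difference was -0.402 to 1.90 points in dCLN, -1.06 to 1.55 in sCLN and -1.59 to 1.52 in iLN; smaller differences than these were not detectable at this depth. IGKV10-96 was 5.35% in 5xFAD and 4.97% in WT dCLN, 5.05% in 5xFAD and 5.21% in WT sCLN, and 6.06% in 5xFAD and 5.86% in WT iLN.

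Cervical nodes had a lower IGKV10-96 share than the inguinal node in all 4 comparisons within a genotype, by 0.651 to 1.01 points, and all of these intervals included 0. The 4 comparisons share 2 inguinal libraries and are not independent; 12.5% of the 56 V genes at 0.5% or more were lower in all 4 and 8.93% higher. IGKV10-94 went the other way in 5xFAD, with 1.68% in dCLN and 1.55% in sCLN, against 1.06% in iLN; in WT it was 1.31% in dCLN, 1.16% in sCLN and 1.29% in iLN. Intervals of a cervical and the inguinal node overlapped for both families and every member, while intervals were apart for 0% and 1.61% of light chain V genes in 5xFAD (dCLN and sCLN against iLN) and for 1.64% in each of the WT comparisons.

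Among other light chain V genes at 1% or more in every library, 28 in all, the one whose share followed IGKV12 most closely over the 6 libraries was IGKV4-55. Its log2 share, centred on its own mean, differed from that of IGKV12 by 0.08 on average, against a median of 0.19 over the 28 genes; IGKV19-93 and IGKV3-12 came next with 0.09 and 0.10. For IGKV10 the closest were IGKV1-110 with 0.08, IGKV6-17 with 0.10 and IGLV1 with 0.10, against a median of 0.17. These distances describe 6 libraries and were not tested.

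IGKV10 chains were joined to IGKJ1 far more often than other kappa chains, in every library. The IGKJ1 share of IGKV10 cells was 60.3% and that of other kappa cells 25% in 5xFAD dCLN, 58.2% and 27.2% in WT dCLN, and 58.2% and 26.6% in 5xFAD sCLN. It was 61.5% and 26.2% in WT sCLN, 56.8% and 25.9% in 5xFAD iLN, and 60.2% and 28.6% in WT iLN. The 2 ranges do not overlap. The difference averaged 32.6 ± 2.08 points (SD, n = 6 libraries; exact two-sided sign-flip test, p = 0.03125, the smallest 6 libraries allow; 0.0982 after Benjamini-Hochberg adjustment over 44 measures). No measure of either family can pass 0.05 after this adjustment unless many reach the smallest p together, so differences between family and other kappa cells are reported below by their sign in 6 libraries.

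The downstream segments were rare among IGKV10 chains. IGKJ5 took 5.75% of IGKV10 cells on average and 28.2% of other kappa cells, and IGKJ4 took 7.20% of IGKV10 cells and 15.1% of other kappa cells; both were lower in 6 of 6 libraries, with the same exact p of 0.03125. IGKJ2 took 27.8% of IGKV10 cells and 30.1% of other kappa cells, lower in 4 of 6 libraries. Both members found in cells with a single light chain did this. The IGKJ1 share was 60.6% ± 8.64 for IGKV10-94 and 59.0% ± 3.24 for IGKV10-96 (SD, n = 6), and the IGKJ5 share was 6.27% ± 4.16 for IGKV10-94 and 5.43% ± 2.44 for IGKV10-96. The 14 IGKV10-95 contigs, all in cells with 2 light chains, used IGKJ1 in 4, IGKJ2 in 5 and IGKJ5 in 5.

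Among 42 kappa V genes at 1% or more of cells, IGKV10-94 had the highest mean IGKJ1 share and IGKV10-96 the fourth; IGKV3-2 with 60.1% and IGKV19-93 with 59.3% lay between them. Strong J preference was common in this locus. IGKJ1 was higher than in all other kappa cells in 6 of 6 libraries for 31% of the 42 genes and lower for 40.5%, and IGKJ5 was lower in 6 of 6 for 31% and higher for 28.6%. IGKJ4 was lower for 16.7% and higher for 9.52%, and IGKJ2 lower for 4.76% and higher for 11.9%.

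IGKV12 chains also favoured IGKJ1, less strongly. The IGKJ1 share of IGKV12 cells and of other kappa cells was 36.1% and 25% in 5xFAD dCLN, 45.3% and 27.2% in WT dCLN, and 35.1% and 26.6% in 5xFAD sCLN. It was 30.7% and 26.2% in WT sCLN, 32.3% and 25.9% in 5xFAD iLN, and 41.9% and 28.6% in WT iLN. The family was higher in 6 of 6 libraries, by 10.3 ± 4.95 points on average (exact two-sided sign-flip test, p = 0.03125; adjusted p 0.0982). IGKJ5 took 21.6% of IGKV12 cells and 28.2% of other kappa cells, lower in 6 of 6 libraries. This did not hold for IGKV12-44, whose IGKJ5 share averaged 33.3%. It was above that of other kappa cells in every library except 5xFAD sCLN (23.8% against 27.7%).

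**Figure D2:**
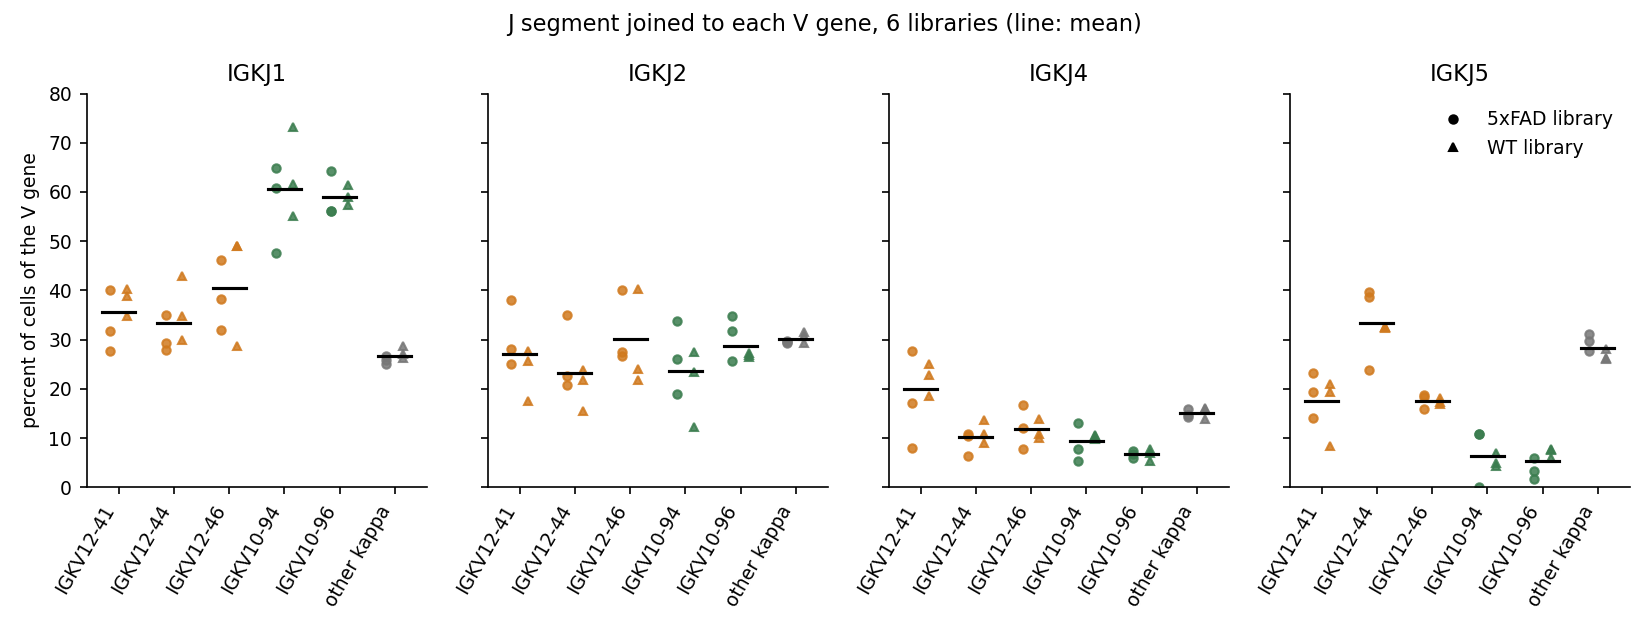
Percent of the cells of a V gene that are joined to IGKJ1, IGKJ2, IGKJ4 or IGKJ5 (y axis, 1 panel per segment), for 5 members and all other kappa cells (x axis); circles are 5xFAD libraries, triangles WT libraries and lines means of 6 libraries. For IGKJ1 the lowest IGKV10 point is 47.7% and the highest other kappa point 28.6%, and IGKV12-44 stands above IGKV12-41 and IGKV12-46 for IGKJ5.

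The IGKV12 genes differed among themselves. IGKV12-44 was joined to IGKJ5 in 33.3% ± 5.68 of its cells, against 17.6% ± 1.01 for IGKV12-46 and 17.5% ± 5.43 for IGKV12-41 (SD, n = 6 libraries), although the 3 genes are neighbours in the proximal stretch and 94.8% to 95.5% identical. The IGKV12-44 share was 23.8% to 39.7% by library and that of IGKV12-46 16.0% to 18.7%, with no overlap. IGKV12-44 was higher than IGKV12-46 by 15.7 ± 4.79 points and higher than IGKV12-41 by 15.8 ± 5.51 points, in 6 of 6 libraries each (exact two-sided sign-flip test, p = 0.03125; 0.1 after adjustment over 16 pair and J combinations, a set chosen after the values were seen). IGKV12-41 had the highest IGKJ4 share of the 5 members at 1% or more of cells, 19.9% ± 7.04, and IGKV12-44 was lower than it in 6 of 6 libraries. For IGKV12-98 and IGKV12-89 the pooled IGKJ1 shares were 40.7% (interval 30.2% to 51.8%) of 86 cells and 40% (25.7% to 55.7%) of 45 cells.

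**Figure D3:**
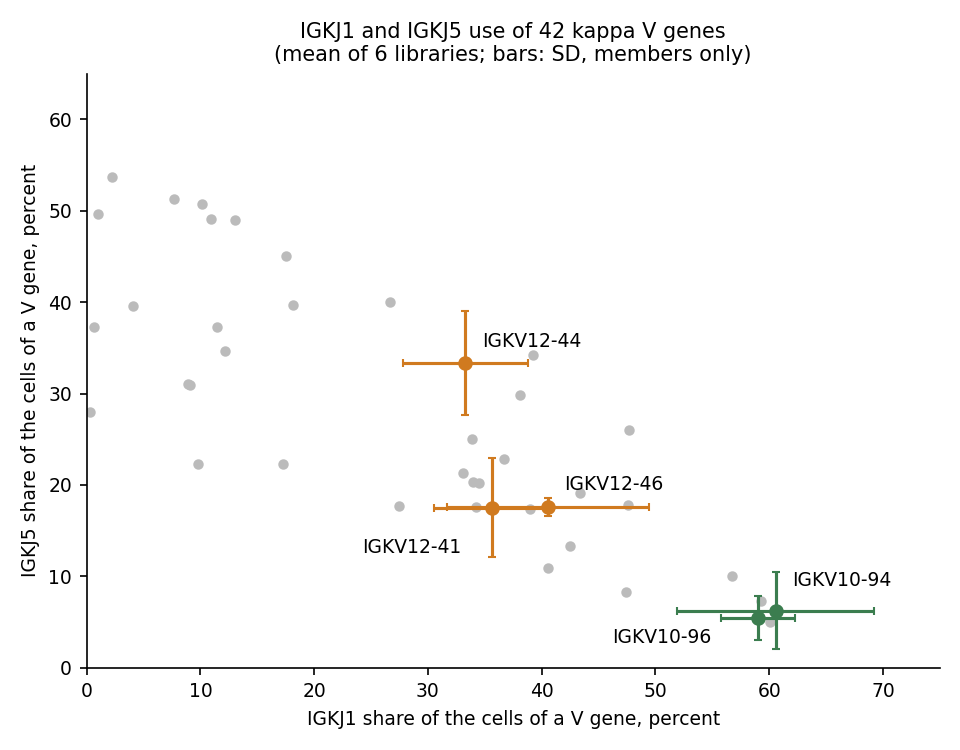
Mean IGKJ1 share (x axis, percent) against mean IGKJ5 share (y axis, percent) of 42 kappa V genes over 6 libraries; coloured points with SD bars are the members at 1% or more of cells and grey points other genes. IGKV10-94 and IGKV10-96 sit at the lower right (60.6% and 59.0% IGKJ1), and IGKV12-44 above IGKV12-41 and IGKV12-46.

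Member junctions were nearly uniform in length and highly repeated between cells. A junction of 33 bases was found in 97.3% of IGKV12 cells and 94.4% of IGKV10 cells on average, against 90.3% of other kappa cells, higher in 6 of 6 libraries for each family (exact two-sided sign-flip test, p = 0.03125; adjusted p 0.0982); 47.6% of the 42 kappa V genes were also higher in 6 of 6 and 9.52% lower. By gene this share ran from 93.3% in IGKV10-96 and 95.7% in IGKV12-41 to 100% of 86 cells in IGKV12-98. IGKV10-96 used 48 distinct junctions in 955 cells. Its leading junction, shown above with IGKJ1, was found in 337 cells and paired with 291 distinct heavy chain sequences in 303 cells with 1 heavy chain. The leading IGKJ1 junction of IGKV10-94 was in 102 of 242 cells, the IGKJ5 junction of IGKV12-44 in 92 of 417, the IGKJ2 junction of IGKV12-46 in 138 of 468, and that of IGKV12-41 in 77 of 304. The V gene and exact junction of a cell also occurred in a library of the other genotype for 93.5% ± 1.53 of IGKV12, 96.5% ± 1.25 of IGKV10 and 93% ± 1.32 of other kappa cells (SD, n = 6 libraries).

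Bases called as added between V and J were recorded in 10.7% of IGKV10 cells on average, against 3.64% of other kappa cells, higher in 6 of 6 libraries, as for 7.14% of the 42 genes, while 42.9% were lower in 6 of 6. IGKV10-96 had 126 such cells of 955 and IGKV10-94 had 1 of 242. In 113 of the 126 the added base continues the germline of IGKV10-96 as GENCODE gives it. The commonest such junctions, with the added base in capitals, join IGKJ1 in 80 cells and IGKJ4 in 19 cells.
IGKV10-96 with IGKJ1: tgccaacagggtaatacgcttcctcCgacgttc
IGKV10-96 with IGKJ4: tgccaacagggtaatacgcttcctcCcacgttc
With these bases counted as germline, added bases remained in 1.18% of IGKV10 cells, against 3.16% of other kappa cells, lower in 6 of 6 libraries; this recount was chosen after the data were seen. In the mixed library every IGKV10-96 call named allele 07, which no call did in the other 6 libraries, and 1 of 127 cells had an added base. IGKV12 cells had added bases in 2.15% on average, against 3.64% of other kappa cells, lower in 4 of 6 libraries.

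Unswitched member cells carried light chains that were almost entirely germline. Of unswitched cells, 823 for IGKV10-96, 397 for IGKV12-46, 353 for IGKV12-44, 253 for IGKV12-41 and 211 for IGKV10-94, the light V segment had no mismatch in 98.9%, 99.5%, 99.7%, 100% and 99.5%. IGKV12-98 was lower, with 92.6% of 68 cells. In this gene the mismatch T333G, counted from the 5′ end of the gapped V alignment, recurred in 5 cells of the 6 libraries. It lies 3 bases from the called V end, and all carriers shared 1 IGKJ5 junction and were not switched. A G here, followed by the germline V bases ct, reads the same as the gct that begins IGKJ5. The mismatch can therefore be read as a J base assigned to V, and the 92.6% depends on where V is taken to end. The mean mismatch was 0.00526% of V bases in unswitched IGKV12 cells and 0.00774% in unswitched IGKV10 cells, against 0.194% in other kappa cells, lower in 6 of 6 libraries. This was common: 76.2% of the 42 kappa V genes were lower than all other kappa cells in 6 of 6 libraries and 7.14% were higher, so the mean of other kappa cells was raised by a minority of genes. Without the 5 other kappa V genes of 78 that had a mismatch in at least 50% of their unswitched cells, that value was 0.0691%.

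Class-switched member cells were few, and most carried light chain mutations. There were 38 switched IGKV12 cells with 35 distinct receptors and 36 switched IGKV10 cells with 29 distinct receptors in the 6 libraries, so the shares below count some receptors several times. The light V segment was mutated in 84.2% of the IGKV12 cells, with a median of 1.06% and a maximum of 5.24% of bases, and in 69.4% of the IGKV10 cells, with a median of 1.58% and a maximum of 8.48%. Averaged by library, switched cells had 1.44% light V mutation in IGKV12 over the 5 libraries with such cells, 2.18% in IGKV10 and 2.03% in other kappa cells, with differences of either sign between libraries. Counted over cells of any isotype, the substitution G285A, in the V segment of IGKV10-96, was found in 11 cells of the 6 libraries. Not all of its carriers were switched. G73A recurred in 6 IGKV12-44 cells, 5 of them switched, and G302C in 7 IGKV12-46 cells.

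The switched share of the families was close to that of other kappa cells and varied more by node. In IGKV12 it was 4.18% in 5xFAD and 5.19% in WT dCLN, 3.68% in 5xFAD and 2.90% in WT sCLN, and 0 of 143 cells (interval 0% to 2.55%) in 5xFAD iLN, against 2.27% in WT iLN. In IGKV10 it was 2.82% in 5xFAD and 5.82% in WT dCLN, 2.11% in 5xFAD and 5.85% in WT sCLN, and 0.704% in 5xFAD and 1.39% in WT iLN. IGKV10 was thus lower in 5xFAD in 3 of 3 nodes (mean difference -2.47 ± 1.59 points, SD, n = 3; exact two-sided sign-flip test, p = 0.25), and the intervals overlapped at each node. With identical receptors counted once, an alternative chosen after the data were seen, the mean difference was -1.91 ± 1.06 points (exact two-sided sign-flip test, p = 0.25). Other kappa cells had 4.07% in 5xFAD and 3.65% in WT dCLN, 2.45% (1.77% to 3.30%) in 5xFAD and 4.40% (3.64% to 5.27%) in WT sCLN, and 1.43% in 5xFAD and 1.51% in WT iLN, with intervals apart in sCLN. Over 6 libraries the mean was 3.04% in IGKV12, 3.12% in IGKV10 and 2.92% in other kappa cells. The difference from other kappa cells was 0.118 ± 1.32 points for IGKV12 and 0.197 ± 1.33 points for IGKV10 (exact two-sided sign-flip test, p = 0.844 and 0.75), and no kappa V gene of 42 was higher in 6 of 6 libraries (0%) and 2.38% were lower.

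Switched IGKV12 cells were mostly IgG2c and IgG2b, with 19 and 11 of 38 cells, and switched IGKV10 cells mostly IgG2b, IgG2c and IgG1, with 15, 10 and 9 of 36. IgA was found in 3 IGKV12 and 2 IGKV10 cells, and IgG3 and IgE in none of either family. Of 404 switched other kappa cells, 144 were IgG2b, 114 IgG2c, 89 IgG1, 42 IgA and 15 IgG3, and none was IgE. IgG3 was thus rare there too. Repeated receptors are included in all these counts, and differences in isotype were not tested.

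Heavy chains paired with the 2 families had longer junctions than those paired with other kappa chains. Mean heavy junction length was 43.9 bases with IGKV12 and 43.5 bases with IGKV10, against 42.1 bases with other kappa chains, longer in 6 of 6 libraries for each (difference 1.78 ± 0.222 and 1.42 ± 0.622 bases; exact two-sided sign-flip test, p = 0.03125; adjusted p 0.0982). In WT dCLN the IGKV10 mean of 42.6 bases was closest to the other kappa mean of 42 bases. Of the 42 kappa V genes, 19% were longer and 14.3% shorter in 6 of 6 libraries; IGKV12-46 ranked 4 with 44.1 bases, IGKV12-44 ranked 5 with 44, IGKV10-94 ranked 6 with 43.9, IGKV10-96 ranked 11 with 43.4, and IGKV12-41 ranked 13 with 43.3 and was longer in 5 of 6 libraries.

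The difference lay in short junctions more than in long ones. Heavy junctions of 33 bases or fewer made up 8.25% of cells with IGKV12 and 9.45% with IGKV10, against 16.5% with other kappa chains, and both families were lower in 6 of 6 libraries. The median over the 42 kappa V genes was 12.6%; 26.2% of them were lower than all other kappa cells in 6 of 6 libraries and 14.3% higher. The 5 members in this set ranged from 6.62% in IGKV12-44, which ranked 39 from the highest, to 9.79% in IGKV10-94, which ranked 31 and was lower in 5 of 6; IGKV3-12 was lowest with 4.67%. Junctions of 51 bases or more made up 22% with IGKV12, 19.9% with IGKV10 and 18.0% with other kappa chains. Among other kappa genes, IGKV1-135 with 45% and 4 more had over 25% short heavy junctions; without those 5 genes other kappa cells had 14.3% short junctions and a mean of 42.5 bases, and both families stayed longer in 6 of 6 libraries.

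**Figure D4:**
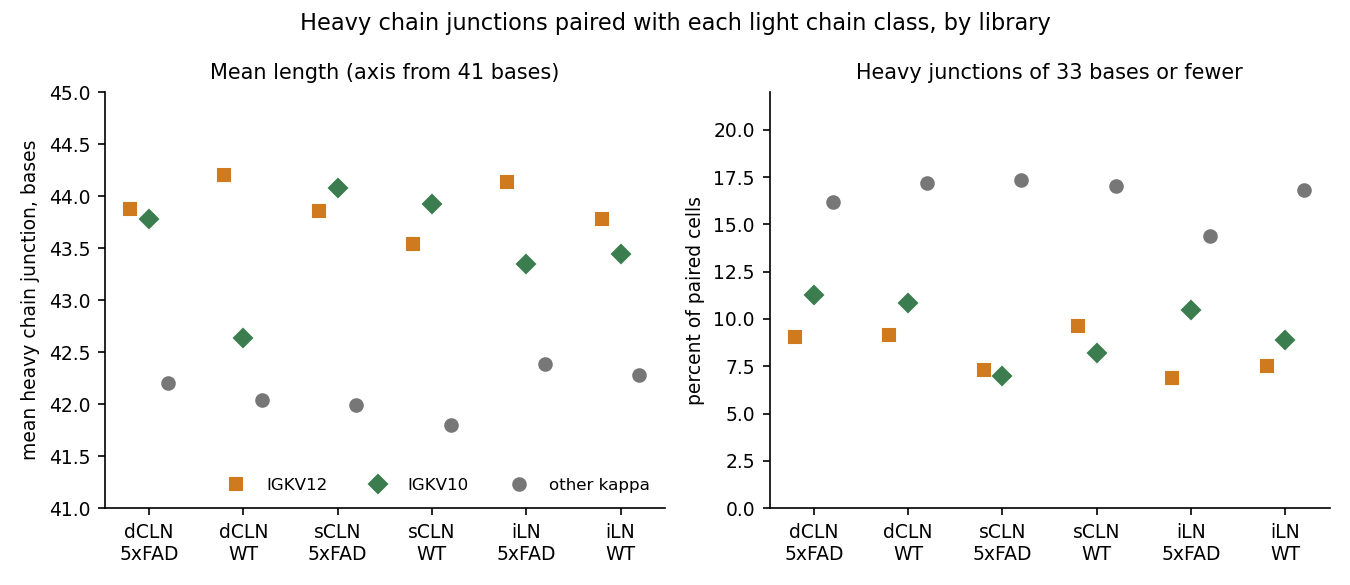
Mean heavy chain junction length in bases (left, axis from 41) and percent of paired cells with a heavy junction of 33 bases or fewer (right), by library, for cells with IGKV12, IGKV10 or other kappa chains. Squares and diamonds lie above the grey circles on the left and below them on the right in all 6 libraries.

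Heavy V partners were broad, with 84 IGHV genes seen with IGKV12 and 85 with IGKV10. The most frequent partner of both families was IGHV1-26. With IGKV10 it was higher than with other kappa chains in 4 of 6 libraries, and 2.63% of the 38 partner genes were higher in 6 of 6. With IGKV12 it took 9.81% of cells in 5xFAD dCLN and 7.76% in WT dCLN, 6.25% in 5xFAD sCLN and 8.17% in WT sCLN, and 8.28% in 5xFAD iLN and 9.02% in WT iLN. It averaged 8.22% with IGKV12 and 6.09% with other kappa chains, higher in 6 of 6 libraries, as were 5.26% of the 38 partner genes at 1% or more. The next partners of IGKV12 were IGHV3-6 (4.49%), IGHV9-3 (4.19%), IGHV1-18 (3.50%) and IGHV1-64 (3.33%).

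Among the 38 partner genes at 1% or more, IGHV8-8 had the largest negative difference in points between IGKV12 and other kappa cells. It was found in 11 of 1162 IGKV12 cells, by library 6 in 5xFAD and 3 in WT dCLN, 0 in 5xFAD and 1 in WT sCLN, and 1 in 5xFAD and 0 in WT iLN. It averaged 0.801% with IGKV12 and 3.29% with other kappa chains, a difference of -2.49 ± 0.707 points and lower in 6 of 6 libraries. IGHV1-50 was lower with IGKV12 too, 0.842% against 2.12%, in 6 of 6 libraries, where 7.89% of the 38 partner genes were lower in 6 of 6. As a family, IGHV14 partnered 3.62% of IGKV12 cells and 5.40% of other kappa cells, lower in 6 of 6 libraries (exact two-sided sign-flip test, p = 0.03125; adjusted p 0.0982). The largest positive differences after IGHV1-26 were IGHV1-18 (3.50% against 2.38%) and IGHV5-16 (2.06% against 0.975%), higher in 5 and 4 of 6 libraries.

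With IGKV10, IGHV2 genes were found in 9.16% of cells, against 6.54% with other kappa chains, higher in 6 of 6 libraries, though by only 0.00600 points in one of them, WT sCLN (exact two-sided sign-flip test, p = 0.03125; adjusted p 0.0982). IGHV1 genes were found in 55.3%, against 59.3%, lower in 5 of 6. After IGHV1-26 (7.06%) the leading partners were IGHV3-6 (3.77%), IGHV1-82 (3.24%), IGHV9-3 (3.23%) and IGHV2-2 (3%). IGHV1-81 (2.04% against 3.24%) and IGHV1-69 (1.23% against 2.20%) were lower than with other kappa chains in 6 of 6 libraries, as were 7.89% of the 38 partner genes, and IGHV8-8 (2.30% against 3.29%) in 5 of 6. IGHV1-69 was lower with IGKV12 too, 1.19% against 2.20%, in 6 of 6 libraries. IGHV1-82 and IGHV5-4 (2.72% against 2.08%) were higher with IGKV10 in 4 of 6. IGHV5-16 (1.58% against 0.975%) was higher with IGKV10 in 6 of 6, the 1 gene of the 38 to be so.

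Cells with the same heavy and light V genes and junctions within a library were rare and small in number. They formed 39 groups with 82 of 1162 paired IGKV12 cells (7.06%) and 40 groups with 85 of 1081 paired IGKV10 cells (7.86%), and held 8.48% of paired other kappa cells. The largest IGKV12 group had 5 IgM or IgD cells in WT dCLN, with IGKV12-44 and IGHV1-81, no mutation in either chain and 2 to 15 heavy chain UMIs. It made up 5 of the 11 IGHV1-81 cells with IGKV12 in that library. The 5 largest IGKV10 groups had 3 cells each.

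IGKV10-95 was found in no cell with a single light chain. Its 14 productive contigs in the 6 libraries, spread over all of them with 1 to 3 in each, were all in cells with 2 light chains (100%, interval 76.8% to 100%). Contigs of the other 7 members lay in such cells in 13.6% to 22.4% of cases, and the median over 87 kappa V genes with at least 10 contigs was 18.1%. IGKV10-95 was the highest of the 87 and the one gene at 100%; IGKV9-129 followed with 16 of 17 contigs and IGKV8-16 with 27 of 30. The mixed library held 4 more IGKV10-95 contigs, all 4 in such cells.

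**Figure D5:**
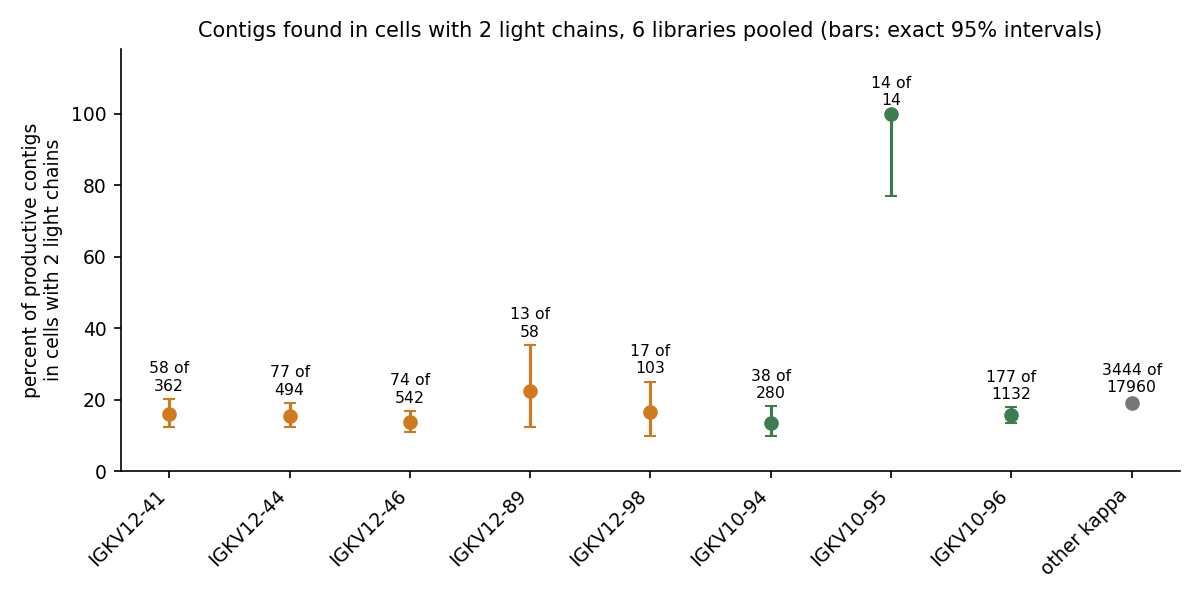
Percent of productive contigs of each member, and of all other kappa genes, that were found in cells with 2 light chains (y axis), with counts and exact 95% intervals, over 6 libraries pooled. IGKV10-95 stands at 14 of 14, while the other genes lie between 13.6% and 22.4%.

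The IGKV10-95 chain usually had fewer UMIs than its partner. It had more UMIs than its partner chain in 2 of 14 cells (14.3%, interval 1.78% to 42.8%) and as many in 1, whereas IGKV10-94 and IGKV10-96 had more in 104 of 215 such contigs (48.4%, 41.5% to 55.3%), IGKV12 genes in 166 of 239 (69.5%, 63.2% to 75.2%) and other kappa contigs in 47.9%. All 14 cells had a single heavy chain (interval 76.8% to 100%), which held for 65.4% of such contigs of the other members and 70.4% of those of other kappa genes. The partner was a kappa chain in 13 cells and IGLV1 in 1, and included IGKV12-46 and IGKV3-5, each in 2 cells, and IGKV1-110 in 2. The V segment was unmutated in 13 of 14 cells, IGKJ1, IGKJ2 and IGKJ5 were used in 4, 5 and 5, and 10 of the junctions had 33 bases. Over all contigs of a gene, the median of 21.5 UMIs for IGKV10-95 was below the 26 of IGKV10-94 and the 25 of IGKV10-96. Most contigs of IGKV10-94 and IGKV10-96, unlike those of IGKV10-95, lay in cells with a single light chain. Since a droplet with 2 cells would also hold 2 light chains, and gene expression was not used here, the part of doublets in these values was not tested.

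Between genotypes, other properties of the families differed little. Of 17 share measures at 3 nodes each, intervals of 5xFAD and WT were apart in 2 of 51 comparisons for IGKV12 and in 0 of 51 for IGKV10. In IGKV12 these were IGHJ3 in dCLN, with 26% in 5xFAD and 14.6% in WT, and IGHJ4 in iLN, with 17.2% in 5xFAD and 33.1% in WT. The IGHJ3 direction was not shared by all nodes, at 26.6% in 5xFAD and 23.1% in WT sCLN and 22.1% in 5xFAD and 30.1% in WT iLN. With IGKV12, IGHJ4 was lower in 5xFAD in 3 of 3 nodes. With IGKV10 it was higher in 5xFAD in 3 of 3 nodes, and with other kappa chains the sign differed between nodes. IGKV10 chains in 5xFAD had a higher IGKJ2 share (27.6%, 31.0% and 31.0% in dCLN, sCLN and iLN, against 26.2%, 23.9% and 27.3% in WT) and a lower IGKJ5 share (5.15%, 3.80% and 5.16%, against 7.11%, 7.08% and 6.21% in WT) at all nodes. Added bases in IGKV12 junctions were recorded in 4.81%, 0.948% and 4.19% of 5xFAD cells, against 1.89%, 0.433% and 0.645% of WT cells. These were 14, 2 and 7 cells in 5xFAD dCLN, sCLN and iLN, and 5, 1 and 1 cells in WT, with overlapping intervals at each node. Over the 22 measures, 4 had the same sign at all 3 nodes in IGKV12 and 6 in IGKV10, each with p = 0.25 in the exact two-sided sign-flip test, the smallest that 3 nodes allow. Light and heavy V mutation of switched IGKV12 cells had no value in 5xFAD iLN and could not be counted.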

How the data were processed

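The labels' protocols describe droplet-based 5′ B cell receptor libraries from pooled, hashtagged lymph node cells. The submitters' processing notes name Cell Ranger 6.0.1, Seurat 4.1.0 and mm10 but give none of them a role. Each line of a deposited table is an assembled contig with IgBLAST-style germline calls, per the file headers, and which germline set was searched is not given in the sources used here. The authors deposited UMI and read numbers as counts and V identity as a fraction. Junction and N lengths are numbers of bases.

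From these, cells with exactly 1 productive light contig were kept. Paired cells also had exactly 1 productive heavy contig, and no doublet caller was run. V mutation is the percent of aligned V bases that differ from the germline. Shares have exact 95% intervals; with 1 library per node and genotype no test within a node was possible. Differences over 3 nodes or 6 libraries were tested by exact two-sided sign-flip tests, with Benjamini-Hochberg adjustment over 44 measures (22 per family). Libraries may share animals, so p-values measure the spread between libraries. A V gene enters the background of genotype or node comparisons at 0.5% or more of cells and that of family properties at 1% or more. A count of 0 allows up to 3 counts. The share test, the mismatch counter and the intervals were tested on simulated data.

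Named were all 8 members, the 4 J segments, the 5 most used heavy partners and the 3 largest differences in each direction per family, the 2 leading junctions per member, the 3 genes nearest to each family in share, and the largest receptor groups. Other genes named were chosen after their values were seen. Members and lists were chosen with earlier results of these data known. Germline ends and positions are from GENCODE M21, in which all 8 members were found. Python 3.11.15, pandas 2.3.3, numpy 2.4.6 and scipy 1.17.1 were used. One receptor shared between libraries is not reported here; its cells stay in all counts.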

Additional observations from a re-analysis of the deposited data

Results flagged for a closer look

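The mixed library, whose cells carry no node or genotype label here, entered no test. It gave family shares of 7.12% for IGKV12 and 5.70% for IGKV10 of 2737 cells with 1 light chain. The IGKV12 value lies inside the range of the 6 other libraries (6.51% to 8.81%), and the IGKV10 value below theirs (6.28% to 7.15%). The interval of that IGKV10 value, 4.86% to 6.63%, overlaps their range.

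Contigs in cells with more than 1 light chain also lay outside the main measurement. They held all 14 IGKV10-95 contigs of the 6 libraries and the 4 of the mixed library, while no cell with a single light chain carried this gene.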

How the results depend on the processing

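Of 65 results recomputed under planned and added alternatives, 546 values in all, 516 stayed the same. For family against other kappa cells, this means an unchanged sign of the mean and an unchanged answer to whether all libraries shared 1 sign. For mean family differences between genotypes it means an unchanged sign, and for IGKV12 in sCLN intervals that also stayed apart. Member shares had to stay within the SD between nodes, and cervical against inguinal differences within the main interval. Of the others, 15 took 1 sign in all libraries used, 1 lost the gap between intervals, 1 moved and 13 changed sign. Among the 516 the genotype difference of the rare IGKV12-89 ranged from -0.0422 to 0.0426 points and that of IGKV12-98 from -0.0676 to 0.0102 points, either side of 0. The mean family share differences between genotypes kept their direction under every alternative run. Leaving out 1 node moved the mean difference to 0.454 to 1.54 points for IGKV12 and 0.0967 to 0.491 points for IGKV10. Counting all productive light contigs took the IGKV12 difference in sCLN to 1.69 points with overlapping intervals; the cause was not tested. The excess of added bases in IGKV10 turned to -1.98 points when N bases were recounted against GENCODE germline ends, an alternative chosen after seeing the data that by construction counts the last base of IGKV10-96 as germline. Leaving out 1 library kept the IGKJ1 differences at 32.1 to 33 points for IGKV10 and 8.75 to 11.5 for IGKV12.

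Results without 1 sign in all libraries changed sign as follows. The switched share difference of IGKV10 was -0.102 points with identical receptors counted once and -0.196 to 0.486 with 1 library left out, and that of IGKV12 -0.165 to 0.442. Leaving out 1 library gave -0.152 to 0.535 for light and -0.490 to 0.632 for heavy V mutation of switched IGKV10 cells, in percent of bases. It gave -0.836 to 0.152 points for the IGHV9 share with IGKV10, and -1.49 to 0.764 and -0.164 to 2.90 points for the IGHJ1 and IGHJ3 shares with IGKV12. No fit with a replicate block was possible because the labels carry no replicate numbers; genotypes were compared within nodes and families within libraries.

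Limits are set by 1 library per node and genotype, by few switched members (74 cells), and by 14 IGKV10-95 contigs. Smaller shares such as IGKV12-89 rest on 4 to 11 cells per library.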
